A study of Mus musculus with 8 samples.

Results

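Hyperoxia was compared with control retina over the superior and inferior retina in mice of the C57BL/6J strain, using all 8 arrays of the series. The 4 arrays labelled hyperoxia were set against the 4 labelled control, and the region, superior or inferior retina, was the other factor of an additive model. The change this model gives is the average of the superior and inferior changes. It is called the common change below, and it can differ from the change in either region. Exposed mice were kept in 75% oxygen for 14 days starting when they were 83 to 90 days old, and controls, kept in normoxia, were killed at a matching age. All mice were raised and held in dim cyclic light, and the labels and methods name no transgene or deletion. Each of the 4 groups (control superior, control inferior, hyperoxia superior, hyperoxia inferior) held 2 arrays, and each array measured the pooled RNA of a male and a female (2 animals), so that the spread between single animals cannot be seen. Whether the superior and inferior samples with the same number came from the same animals is not given, and the p-values therefore measure only the spread between these samples. If they did, the 4 arrays of a treatment stand for only 2 pools of animals.

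Retinal cells sense oxygen through prolyl hydroxylases, which mark the hypoxia-inducible factors for destruction when oxygen is present. When oxygen is scarce the factors persist and raise genes of glucose uptake, glycolysis, lactate export, mitochondrial turnover and vessel growth, and photoreceptors in the dark hold oxygen in the outer retina very low. Photoreceptors that are stressed or dying are known to be accompanied by reactive changes in Müller cells and astrocytes, the glia of the retina, and by activation of microglia, its resident phagocytes.

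Each value is a log2 signal of a probe set, a group of short probes along the exons of a gene on the Affymetrix Mouse Gene 1.0 ST array, so that a difference of 1 is a doubling. Array medians lay between 6.98 and 7.05, and no pair of replicate arrays held identical values. The tissue carried retinal transcripts on all arrays: the summed signal of 28 rod photoreceptor genes lay between 17.43 and 17.5 on the control arrays and between 17.2 and 17.48 on the hyperoxia arrays (log2 scale). In pooled tissue, fewer cells of a type and less RNA per cell cannot be told apart. Lens genes were high on control inferior replicate 2, where their median lay 1.77 above the mean over all arrays, against -0.55 to 0.03 on the other arrays. Genes of the retinal pigment epithelium, the cell layer behind the photoreceptors, had array medians of -0.53 to 0.18 on the control arrays and of 0.04 to 0.24 on the hyperoxia arrays.

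Hyperoxia raised 46 of 28853 probe sets (0.159%) and lowered 25 (0.0866%) in the common change of both regions at an adjusted p under 0.05 (limma, Benjamini-Hochberg over all probe sets). With 1 probe set standing for each gene, 43 of 19938 genes were higher (0.216%) and 18 were lower (0.0903%). On all 71 called probe sets, the hyperoxia arrays lay beyond the control arrays on the same side in the superior and again in the inferior retina. Over all probe sets, 1437 did so upward (4.98%) and 1251 downward (4.34%), and over all genes 1063 did so upward (5.33%) and 843 downward (4.23%). The median change of all probe sets was 0.0037 and the SD of their changes was 0.134.

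The changes were of one sign in both regions but not always of like size. The higher probe sets rose by 0.39 to 1.83 (median 0.86), with medians of 0.64 for superior and 0.96 for inferior retina, and 40 of 46 had the larger change in the inferior retina. Among the lower probe sets the changes ran from -1.40 to -0.37 (median -0.56), with medians of -0.49 superiorly and -0.54 inferiorly. The superior change was a median of 0.66 times the inferior change for the higher probe sets and 0.95 times for the lower ones. It lay within 0.8 to 1.25 times the inferior change for 12 of 46 higher and 16 of 25 lower probe sets. *Pgk1* and *Mif* count 3 times each among the 16, while the 3 probe sets of *Pgam1* lay below that range (0.749 to 0.775). Whether the higher and lower sets differ in this was not tested. A test of the difference between regions itself passed for 1 probe set of all (0.00347%), that of *Edn2*, which was not called here. None of the called probe sets passed it, with a lowest adjusted p of 0.307 (limma interaction), though 20 of the 46 higher and 4 of the 25 lower had an unadjusted p under 0.05. Unequal changes add to the residual spread of the additive model, so that near-equal changes are favoured by the test.

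**Figure D1:**
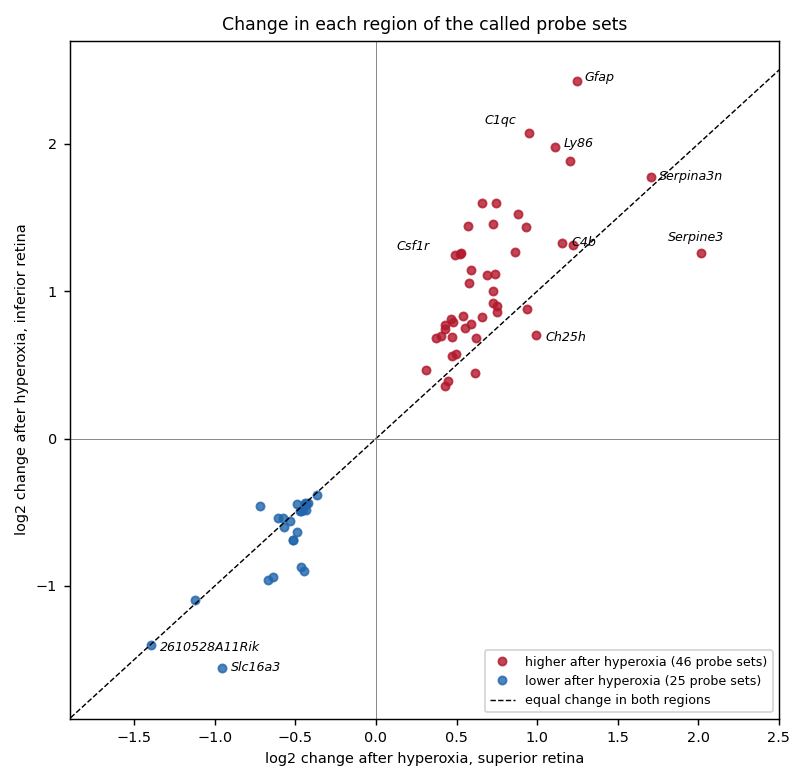
Log2 change after hyperoxia in the superior retina (x axis) and in the inferior retina (y axis) of the 71 called probe sets, each a point, with the line of equal change dashed. Most of the 46 higher probe sets (red) lie above the line, while 16 of the 25 lower ones (blue) have a superior change within 0.8 to 1.25 times the inferior change.

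Fewer probe sets passed with fewer arrays. With any 1 array left out, 1 to 24 probe sets were higher and 2 to 10 lower. Among the control arrays, omitting superior replicate 1 gave 24 higher and 10 lower, omitting superior replicate 2 gave 8 and 4, omitting inferior replicate 1 gave 5 and 4, and omitting inferior replicate 2 gave 12 and 6. Among the hyperoxia arrays, the same omissions gave 12 and 4, 3 and 7, 5 and 2, and 1 and 2. *C4b*, *2610528A11Rik* and 1 of the probe sets of *Ak4* passed without any single array. All 71 kept their direction under each of 22 alternative settings, but only the normalizations and covariates could have reversed it. The other settings leave the change itself unaltered, or leave out an array, which cannot reverse a change without overlap in both regions. With the pigment epithelium median as a covariate, 15 probe sets were higher and 5 lower, of which 15 were among the 71. That median was itself highest on the exposed superior arrays. The 56 probe sets that no longer passed kept changes of 0.707 to 1.269 times those without the covariate (median 1.016), and 31 of them had a change at least as large. *C1qc* changed by 1.74 and *Egln1* by -0.60 with the covariate, against 1.51 and -0.55 without it. *Trf*, itself a gene of that median, changed by 0.90, against 1.27.

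**Figure D2:**
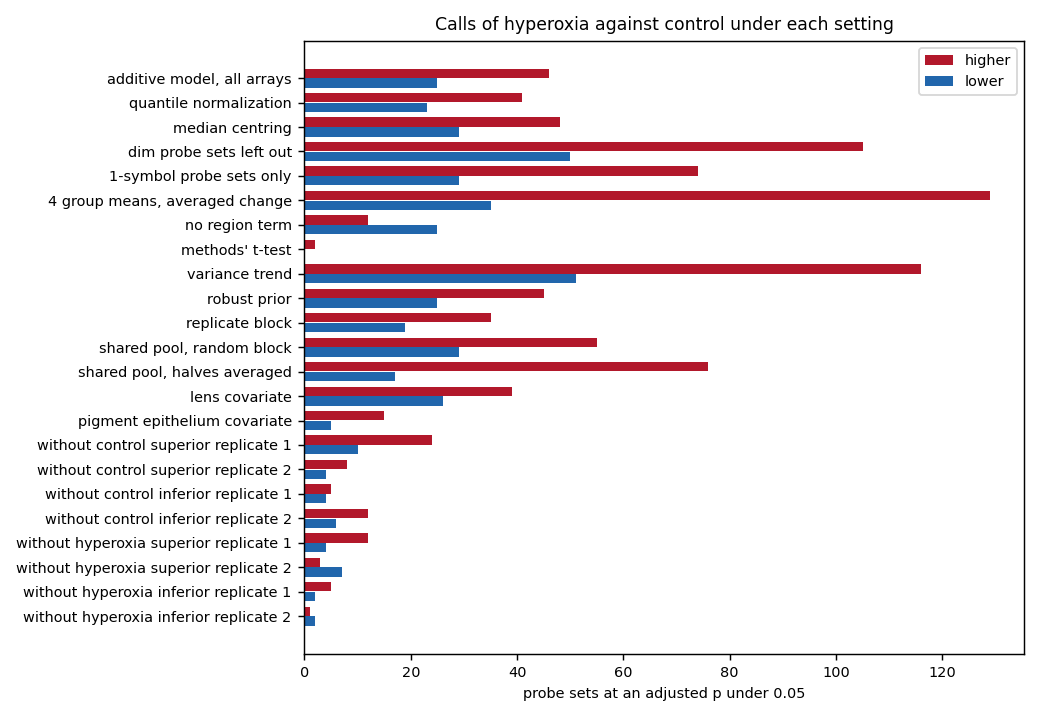
Number of probe sets called higher (red) and lower (blue) at an adjusted p under 0.05 (x axis) under the additive model with all arrays and under each alternative setting (y axis). With all arrays 46 were higher and 25 lower. The fewest were 2 and 0 by the methods' t-test and 1 and 2 without hyperoxia inferior replicate 2, and the most were 129 higher with the changes of the 4 group means averaged and 51 lower with a variance trend.

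Some targets of the hypoxia-inducible factors fell after hyperoxia in both regions. Of 32 measured genes on a list of such targets, 7 fell and 0 rose (background 0.0903% and 0.216% of all genes), and 15 had hyperoxia arrays wholly below the control arrays in both regions (background 4.23%). The median change of the list was -0.21 (-0.09 in the superior retina, -0.23 in the inferior), against 0.0024 over all genes, and 6 of the 32 had a change above 0. The 7 were *Slc16a3*, *P4ha1*, *Pfkfb3*, *Bnip3*, *Egln1*, *Kdm3a* and *Ddit4*. With any 1 array left out, 0 to 4 of the list were called lower, and 2 were with the pigment epithelium covariate.

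Promoters of the lower genes often held ACGTG, the core letters of the hypoxia response element. Promoter sequences of RefSeq (GRCm38.p6, 250 bases before to 50 after the start of the gene, first listed start) were found for 17 of the 18 lower and 35 of the 43 higher genes. On either strand, ACGTG was in 12 of 17 promoters of lower genes (70.6%), in 3 of 35 of higher genes (8.57%) and in 21.7% of 15614 promoters of all genes tested. The longer E-box letters CACGTG, which contain it, were in 1 of the 17 (5.88%) and in 8.38% of all. A match is a description of the letters and not a site of binding. The stretches below are shown because they hold these letters in the promoters of called hypoxia targets and glycolytic genes. No match was found for *Kdm3a*, *Pfkl* and *Aldoa*, which were also called on these lists. For *Grhpr* and *Mif*, counted among the 12, no match lay wholly before the start. Each stretch reads 5′ to 3′ on the strand of its gene, with 30 bases on either side or up to the start of the gene. Capitals mark ACGTG, or CACGT where it reads on the other strand, and the other match of *Slc16a3*, *Pgk1* or *Bnip3* was left in lower case or overlaps the one marked.
Slc16a3 (chr11:120949023-120949066, plus strand): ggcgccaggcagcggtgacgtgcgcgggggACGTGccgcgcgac
Egln1 (chr8:124949288-124949352, minus strand): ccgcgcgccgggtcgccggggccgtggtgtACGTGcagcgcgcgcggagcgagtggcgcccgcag
Ddit4 (chr10:59951923-59951987, minus strand): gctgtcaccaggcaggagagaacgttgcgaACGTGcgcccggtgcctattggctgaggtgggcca
Bnip3 (chr7:138909579-138909643, minus strand): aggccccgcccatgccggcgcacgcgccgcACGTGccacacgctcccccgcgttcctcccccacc
Pfkfb3 (chr2:11553955-11554019, minus strand): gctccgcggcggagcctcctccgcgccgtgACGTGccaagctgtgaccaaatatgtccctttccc
P4ha1 (chr10:59323250-59323295, plus strand): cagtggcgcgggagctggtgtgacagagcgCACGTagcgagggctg
Pgam1 (chr19:41911727-41911791, plus strand): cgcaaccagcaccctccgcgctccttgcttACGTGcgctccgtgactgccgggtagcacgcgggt
Pgk1 (chrX:106186939-106187003, plus strand): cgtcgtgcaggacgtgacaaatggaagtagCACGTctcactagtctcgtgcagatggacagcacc

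*Slc16a3*, which encodes the lactate exporter MCT4 and carries ACGTG just before its start, read 9.23 and 9.45 in control superior and 9.68 and 9.53 in control inferior retina. After hyperoxia it read 8.45 and 8.31 in the superior and 8.11 and 7.99 in the inferior retina. The lowest control array lay well above the highest hyperoxia array, and the level fell by 1.26 (SE 0.12) to 41.8% of control, the largest fall on the list (adjusted p = 0.013, limma). The change was -0.96 superiorly and -1.56 inferiorly, a difference that did not pass its own test (adjusted p = 0.643).

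*Egln1*, the prolyl hydroxylase that marks hypoxia-inducible factors for destruction and is itself one of their targets, fell from 9.44 and 9.58 to 9.0 and 8.96 in the superior retina and from 9.46 and 9.56 to 9.08 and 8.82 in the inferior retina. The groups did not overlap, and the change was -0.55 (SE 0.07, adjusted p = 0.0261, limma), at -0.53 and -0.56 in the regions. For *Ddit4*, an inhibitor of the growth regulator mTORC1, the control arrays read 9.12, 9.18, 9.13 and 9.01 and the hyperoxia arrays 8.69, 8.73, 8.68 and 8.58. Its changes in the superior and inferior retina were both -0.44 (adjusted p = 0.0261), the most nearly equal among the called genes. *Kdm3a*, a histone demethylase that needs oxygen, read 9.28, 9.43, 9.27 and 9.31 in control and 8.89, 8.90, 8.81 and 8.80 after hyperoxia, a change of -0.47 (SE 0.06, adjusted p = 0.0229). *P4ha1*, a subunit of the collagen prolyl hydroxylase, changed by -0.45 superiorly and -0.90 inferiorly (adjusted p of the common change 0.0431).

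*Bnip3*, a mitochondrial protein of mitophagy, was measured by 2 probe sets. The one that stood for the gene fell from 10.3 on average to 9.77 (change -0.56, SE 0.07, adjusted p = 0.0229), while the other changed by -0.33 and was not called (adjusted p = 0.279). *Ak4*, a mitochondrial adenylate kinase known to respond to hypoxia and not a member of the list, also had 2 probe sets, and both fell. The one that passed without any single array read 7.69, 8.01, 8.04 and 7.84 in control and 6.75, 6.71, 6.74 and 6.95 after hyperoxia (change -1.11, SE 0.09, adjusted p = 0.00394). The other changed by -0.67 (adjusted p = 0.0413), so that they gave changes of different size. *Mif*, a secreted cytokine, had 3 probe sets with changes of -0.46, -0.48 and -0.48 (adjusted p = 0.0229 for each). Whether probe sets of *Bnip3*, *Ak4* and *Mif* also read copies of these genes was not tested. They may therefore not be separate measurements.

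Not every target passed the test. *Pdk1*, which holds pyruvate from the mitochondria, changed by -0.61 (adjusted p = 0.0665), *Ankrd37* by -0.60 (adjusted p = 0.0618) and *Vegfa*, the main growth factor of vessels, by -0.37 (adjusted p = 0.0877), and none of these passed, though on each the hyperoxia arrays lay below the control arrays in both regions. *Vegfa* read 9.18, 9.20, 9.28 and 9.36 in control and 8.86, 8.89, 8.77 and 9.01 after hyperoxia. *Slc2a1*, the glucose transporter GLUT1, read 11.41 to 12.07 in control and 11.42 to 11.74 after hyperoxia, and these ranges overlapped (change -0.21, adjusted p = 0.71). *Ndrg1* (-0.09), *Mxi1* (-0.05) and *Egln3* (-0.24) also did not pass, nor did *Car12*, a carbonic anhydrase, whose value of 0.43 was the highest of the list.

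Some steps of glycolysis were lower. Of 18 measured genes of the pathway and its transporters, 5 fell and 0 rose (background 0.0903% and 0.216%), namely *Slc16a3*, *Pfkl*, *Pgam1*, *Pgk1* and *Aldoa*. On 9 there was no overlap downward in both regions (background 4.23%), and 17 had a change below 0 (median -0.26). *Pfkfb3*, counted among the hypoxia targets, makes an activator of phosphofructokinase. It read 8.36, 8.36, 8.61 and 8.43 in control and 7.72, 7.79, 7.96 and 8.01 after hyperoxia, which did not overlap, and changed by -0.57 (SE 0.06, adjusted p = 0.0177). With 1 array left out, 0 to 2 of the 18 were called, and 1 was with the pigment epithelium covariate.

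At the committed step, *Pfkl*, the liver-type subunit of phosphofructokinase, read 11.05, 11.30, 11.43 and 11.15 in control and 10.43, 10.59, 10.44 and 10.22 after hyperoxia. The groups did not overlap, and the level was 56.8% of control (change -0.82, SE 0.10, adjusted p = 0.0229). The next enzyme with a call, *Aldoa* (aldolase A), read 13.45, 13.53, 13.50 and 13.45 in control and 13.07, 13.17, 13.09 and 13.08 after hyperoxia, with changes of -0.37 and -0.38 in the regions (adjusted p = 0.0457). *Pgk1*, phosphoglycerate kinase, fell from 12.22 ± 0.09 (SD, n = 4) to 11.78 ± 0.06 (SD, n = 4), with a limma adjusted p of 0.0357. *Pgam1*, phosphoglycerate mutase, fell from 11.79 ± 0.04 (SD, n = 4) to 11.19 ± 0.14 (SD, n = 4), with a limma adjusted p of 0.0229. Here n counts arrays of both regions and not pools of animals, and the SD includes any difference between regions. *Pgk1* and *Pgam1* were each listed with 3 probe sets, all called, of which 2 held identical values. Copies of these genes may thus share probes, and the probe sets are not separate measurements.

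The remaining steps did not pass. *Tpi1* changed by -0.31 (adjusted p = 0.079), *Ldha*, lactate dehydrogenase A, by -0.31 (adjusted p = 0.126) and *Hk2*, a hexokinase, by -0.35 (adjusted p = 0.283), with no overlap between the groups in either region. *Hk1*, another hexokinase, read 12.36 to 12.43 in control and 12.27 to 12.39 after hyperoxia (change -0.05, adjusted p = 0.837), and *Aldoc*, *Eno2* and *Pkm* changed by -0.08, -0.07 and -0.18. Of 40 genes of the respiratory chain, which uses the oxygen, 0 were called, with a median change of 0.05.

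**Figure D3:**
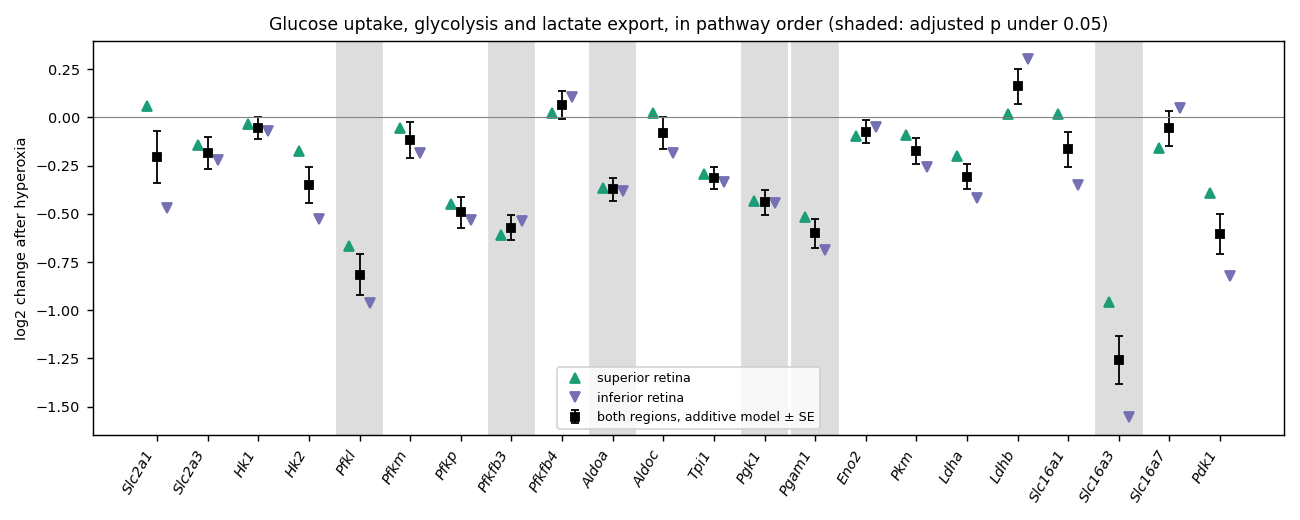
Log2 change after hyperoxia (y axis) of genes of glucose uptake, glycolysis and lactate export in the order of the pathway, with *Pdk1* last (x axis). Squares with bars show the common change and its SE, triangles the change in each region, and shading marks the genes called, from *Pfkl* (-0.82) to *Slc16a3* (-1.26).

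The lower gene with the smallest p of all was *2610528A11Rik*, listed by RefSeq with the synonym *Gpr15l*. It read 8.95, 8.95, 8.94 and 8.68 in control and 7.58, 7.52, 7.49 and 7.32 after hyperoxia, so that even the lowest control array lay more than 1 above the highest hyperoxia array. The level fell by 1.40 (SE 0.07) to 37.9% of control, with the same change of -1.40 in both regions (adjusted p = 0.000279, limma). Its promoter held ACGTG once, at chr14:37110231-37110295 on the minus strand, shown with the letters in capitals.
2610528A11Rik: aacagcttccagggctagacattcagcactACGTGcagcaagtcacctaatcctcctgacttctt

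*Spc25*, a kinetochore protein whose transcript also marks adult mouse Müller cells, read 10.27, 10.16, 10.30 and 10.16 in control and 9.61, 9.54, 9.28 and 9.31 after hyperoxia (change -0.79, SE 0.08, adjusted p = 0.013). It was the 1 called gene of 26 Müller cell genes, whose changes ran from -0.79 to 1.12 (median -0.01). Of the 26, 7 had no overlap upward in both regions (26.9%, background 5.33%) and 4 had none downward (15.4%, background 4.23%). Of 39 other genes of cell division, 0 were called (median 0.04). *Glul*, the glutamine synthetase of Müller cells, read 13.15, 13.09, 13.18 and 13.12 in control and 12.74, 12.98, 12.35 and 12.54 after hyperoxia without passing (change -0.48, adjusted p = 0.138). *Grhpr*, a glyoxylate reductase (-0.47), *1600014C23Rik* (-0.59) and *Rnu5g*, a small nuclear RNA with a low mean signal of 3.41 in control (-0.59), made up the rest of the lower genes.

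Some genes of reactive glia rose after hyperoxia in both regions. Of 38 measured genes, 8 rose and 0 fell (background 0.216% and 0.0903%), 18 had no overlap upward in both regions (background 5.33%) and 1 none downward (background 4.23%). The median change was 0.48, and 6 of the 38 had a change below 0. The 8 were *Gfap*, *Serpina3n*, *A2m*, *C4b*, *Chil1*, *Osmr*, *Gadd45b* and *Serping1*. Members of the list such as *Gfap*, *Osmr*, *Gadd45b*, *Edn2*, *Fgf2* and *Timp1* had been reported by the authors as raised in these same arrays. The counts of this list are therefore not independent of these data. With 1 array left out the count ranged from 1 to 9. It was 2 when control superior replicate 2 or hyperoxia superior replicate 2 was omitted, 4 on omitting control inferior replicate 1, and 3 and 1 on omitting hyperoxia inferior replicates 1 and 2. With the pigment epithelium covariate it was 5.

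*Gfap*, the intermediate filament of astrocytes and of stressed Müller cells, had the largest common change of all called genes. It read 7.05 and 6.80 in the control superior and 6.72 and 6.63 in the control inferior retina, against 8.05 and 8.29 in the hyperoxia superior and 9.04 and 9.16 in the hyperoxia inferior retina. Every hyperoxia array lay above every control array, and the change of 1.83 (SE 0.21, 3.57-fold, adjusted p = 0.0206) was made up of 1.25 superiorly and 2.42 inferiorly. *Serpina3n*, a secreted protease inhibitor of reactive astrocytes, differed from this in its sharing. Its control arrays read 8.83 and 8.56 in the superior and 8.92 and 9.67 in the inferior retina, and its hyperoxia arrays 10.14 and 10.66 and then 10.83 and 11.31. The changes were 1.71 and 1.78 (common change 1.74, SE 0.18, adjusted p = 0.015), although control inferior replicate 2 was well above the other control arrays.

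*Osmr*, the receptor that pairs with gp130 to bind oncostatin M, read 7.03, 6.86, 7.13 and 7.01 in control and 7.82, 7.94, 8.52 and 8.49 after hyperoxia. The groups stood clear of each other and the change was 1.18 (SE 0.10, adjusted p = 0.00696), with the call lost only without hyperoxia inferior replicate 2 among the single arrays (adjusted p = 0.0636). *Stat3*, the transcription factor that gp130 receptors activate, read 9.05, 9.0, 9.09 and 8.98 in control, 9.54 and 9.56 in the exposed superior and 10.4 and 10.2 in the exposed inferior retina (change 0.89, SE 0.13, adjusted p = 0.0413). These were the 2 called of 23 genes from gp130 ligands to STAT3 (median 0.08), and *Socs3*, the feedback inhibitor of the pathway (0.63, adjusted p = 0.287), and *Bcl3* (1.26, adjusted p = 0.108) did not pass. *A2m*, a scavenger of proteases, changed by 1.54 (SE 0.18, adjusted p = 0.0206), and *Chil1*, a secreted chitinase-like protein, by 1.20 (SE 0.13, adjusted p = 0.0177). *Gadd45b*, a stress-response gene, changed by 0.73 superiorly and 1.45 inferiorly (adjusted p = 0.0232).

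The letters TTCNNNGAA, to which STAT factors bind, were in 7 of 35 promoters of higher genes (20%), in 0 of 17 of lower genes and in 7.83% of all, on either strand. A pair of them is shown with the letters in capitals, *Pros1* (chr16:62854185-62854253, plus strand) and *Tnfrsf1a* (chr6:125349473-125349517, plus strand), since both genes were higher in both regions (changes of 0.54 and 0.83 for *Pros1*, 0.62 and 0.68 for *Tnfrsf1a*).
Pros1: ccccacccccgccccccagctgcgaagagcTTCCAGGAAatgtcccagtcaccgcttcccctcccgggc
Tnfrsf1a: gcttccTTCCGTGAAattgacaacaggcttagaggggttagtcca
The letters GAAANNGAA of interferon-stimulated elements were in 17.1% of promoters of higher and 17.6% of lower genes (7.94% of all), GGGANTTTC of NF-kappaB in 5.71%, 0% and 1.1%, TGANTCA of AP-1 in 8.57%, 0% and 6.98%, and TGCGCNC of metal response elements in 5.71%, 41.2% and 21.1%.

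**Figure D4:**
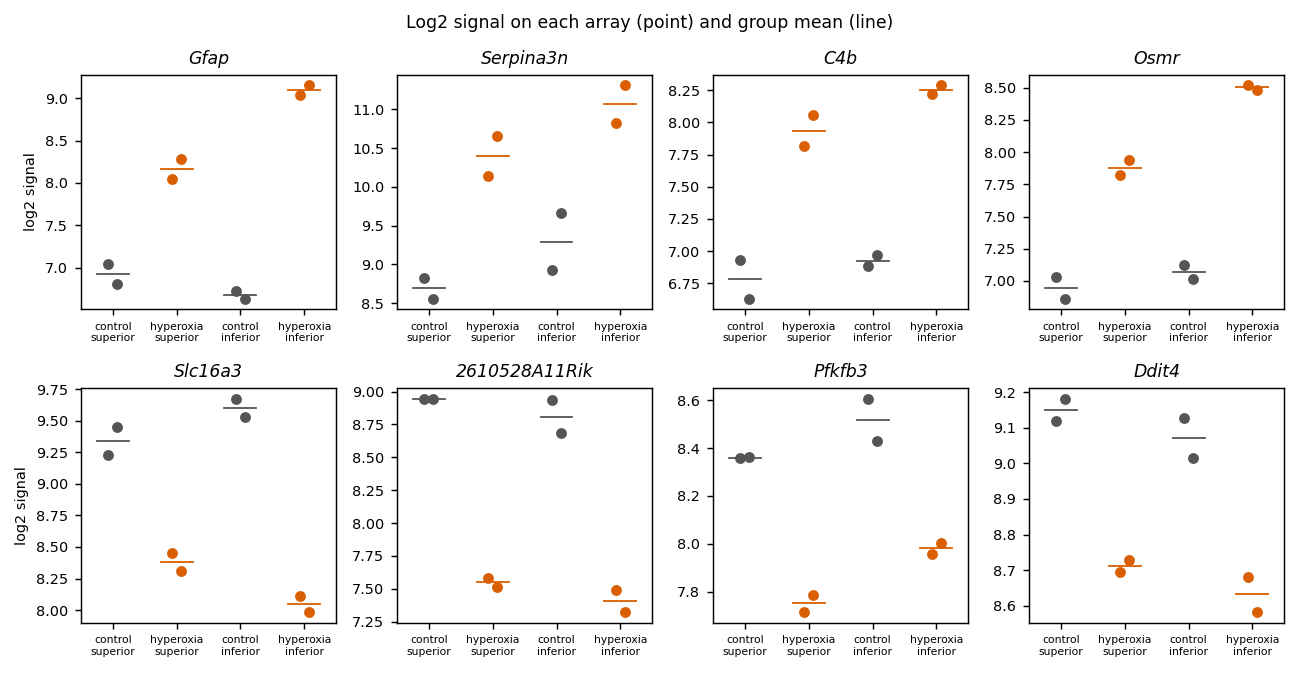
Log2 signal (y axis) of 4 higher genes (*Gfap*, *Serpina3n*, *C4b*, *Osmr*) and 4 lower genes (*Slc16a3*, *2610528A11Rik*, *Pfkfb3*, *Ddit4*) on each array (points) by group (x axis), with lines at the group means and the y axis scaled to each gene. In every panel the hyperoxia arrays (orange) lie on one side of the control arrays (grey) in both regions.

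Part of the complement system rose. Of 21 measured complement genes, 3 rose and 0 fell (background 0.216% and 0.0903%), and 10 had no overlap upward in both regions (background 5.33%), with a median change of 0.22. *C4b*, the component cleaved first by the activated C1 complex, has a near-identical copy in the mouse whose RNA its probes may also read. It read 6.93, 6.63, 6.89 and 6.97 in control and 7.81, 8.06, 8.22 and 8.29 after hyperoxia. The arrays separated by treatment with little difference between regions, and the change of 1.24 (SE 0.09, 2.36-fold) had the smallest p of the higher genes (adjusted p = 0.0022). *C1qc*, a chain of the recognition protein C1q made by microglia, changed by 0.95 superiorly and 2.07 inferiorly (adjusted p = 0.026). Its partner chains *C1qa* (1.32, adjusted p = 0.0568) and *C1qb* (1.30, adjusted p = 0.108) had no overlap in either region but did not pass, and changed in the inferior retina by 1.88 and 2.07. *Serping1*, the inhibitor of C1, rose by 1.06 (SE 0.13, adjusted p = 0.0229). Omitting control superior replicate 1 gave 4 called complement genes, omitting hyperoxia superior replicate 1 gave 2, and there was 1 without any other single array or with the pigment epithelium covariate.

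A small number of phagocyte and microglia genes rose. Of 52 measured genes, 5 rose and 0 fell (background 0.216% and 0.0903%), 26 had no overlap upward in both regions (background 5.33%), and 50 had a change above 0 (median 0.36, at 0.20 superiorly and 0.56 inferiorly). *Ly86*, which pairs with a Toll-like receptor homologue, read 6.72, 6.75, 7.30 and 7.04 in control and 7.86, 7.84, 9.10 and 9.20 after hyperoxia. The exposed inferior arrays were the highest, and the change was 1.55 (SE 0.16, adjusted p = 0.0141). *Ctss*, a lysosomal protease of antigen-presenting cells, changed by 0.75 and 1.60 in the regions (adjusted p = 0.026), *Laptm5*, a lysosomal protein of blood-derived cells, by 0.66 and 1.60 (adjusted p = 0.0457), and *Csf1r*, the receptor on which microglia depend, by 0.49 and 1.25 (adjusted p = 0.047). *Aif1*, the common microglial marker IBA1, read 5.57, 5.59, 5.74 and 5.63 in control and 5.94, 5.97, 6.41 and 6.33 after hyperoxia (change 0.53, SE 0.08, adjusted p = 0.0344).

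Some larger changes among phagocyte genes did not pass. *Mpeg1* changed by 0.65 and 1.94 (adjusted p = 0.0803), *Cd68* by 0.53 and 1.71 (adjusted p = 0.0969) and *Tyrobp* by 0.35 and 1.17 (adjusted p = 0.0969). Of 29 genes of lymphocytes and neutrophils, 0 were called and the median change was 0.02. The phagocyte count was 0 to 3 with 1 array left out and 2 with the pigment epithelium covariate, and 15 with the changes of the 4 group means averaged.

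Interferon response genes rose in small number. Of 30 measured, 3 rose and 0 fell (background 0.216% and 0.0903%), 14 had no overlap upward in both regions (background 5.33%), and the median change was 0.36. *Irf9*, the DNA-binding subunit of the interferon-activated factor, was nearly constant in control at 7.32, 7.30, 7.34 and 7.35, and read 7.90 and 7.90 in the exposed superior and 8.39 and 8.59 in the exposed inferior retina (change 0.86, SE 0.11, adjusted p = 0.0229). *Ifitm3*, which hinders virus entry, changed by 0.93 (adjusted p = 0.0324), and *Ifit1*, which binds viral RNA, by 0.58 (adjusted p = 0.0281). *Herc6* (0.52, adjusted p = 0.049), an enzyme that attaches ISG15, and *Sting1* (0.58, adjusted p = 0.047), a sensor in the response to cytosolic DNA, were also higher and stood on no list. Of 16 genes of class I antigen presentation, 10 had no overlap upward (background 5.33%) and 1 passed (background 0.216%). It was *B2m*, the invariant chain of class I molecules, at 9.48, 9.45, 9.35 and 9.49 in control, 9.95 and 10.02 in the exposed superior and 10.69 and 10.64 in the exposed inferior retina (change 0.89, SE 0.13, adjusted p = 0.0413). The interferon count was 4 without control superior replicate 1 and 0 without any other single array, and the class I count was 0 without any single array.

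Of 33 cytokines, chemokines and their receptors, 2 were called higher (background 0.216%). *Ccl12*, a chemokine for monocytes, read 4.33, 4.70, 4.70 and 4.60 in control and 5.31, 5.08, 5.63 and 5.89 after hyperoxia, a low signal with no overlap (change 0.90, SE 0.12, adjusted p = 0.0262). *Tnfrsf1a*, the main receptor of tumour necrosis factor, rose by 0.65 (SE 0.08, adjusted p = 0.0229), by near-equal amounts in the regions.

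A few higher genes had the larger change in the superior retina. *Serpine3*, a serpin, read 6.51 and 6.67 in the control superior and 6.42 and 6.97 in the control inferior retina, and 8.52 and 8.68 and then 7.77 and 8.15 after hyperoxia. The exposed superior arrays were the highest, with a change of 2.01 against 1.26 in the inferior retina (common change 1.64, SE 0.18, adjusted p = 0.0174). *Ch25h*, which makes an oxysterol, changed by 0.99 and 0.70 (adjusted p = 0.0261), *Glycam1*, a mucin-like protein, by 0.94 and 0.88 (adjusted p = 0.0344), *Tmem176a* by 0.61 and 0.45, *Lamp2*, a lysosomal membrane protein, by 0.44 and 0.39, and *Krt18*, a keratin of simple epithelia, by 0.43 and 0.36 (adjusted p = 0.0431, 0.029 and 0.0499). None of these differences between regions passed its test (adjusted p from 0.79 upward).

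*Trf*, transferrin, the iron carrier that pigment epithelium also makes, read 9.99 and 10.86 in the control superior and 10.28 and 10.97 in the control inferior retina, against 11.51, 11.78, 11.97 and 11.91 after hyperoxia (change 1.27, SE 0.19, adjusted p = 0.0455), and the adjusted p was 0.225 with the pigment epithelium covariate. With *Krt18* it made up the 2 called of 29 pigment epithelium genes, whose median change was 0.37, at 0.52 superiorly and 0.08 inferiorly. Both count among the genes whose median made the covariate, so a smaller change under it is partly by construction. Of the 29, 27 had a change above 0, and 6 had no overlap upward in both regions (20.7%, background 5.33%). *Rpe65*, the isomerase that defines this epithelium, read 7.25, 8.81, 8.22 and 9.07 in control and 9.09, 9.22, 9.32 and 8.59 after hyperoxia, which overlapped (change 0.72, adjusted p = 0.61). *Rgr* changed by 1.12 and *Rdh5* by 1.09 without passing (limma adjusted p = 0.279 and 0.18). For both, every hyperoxia array lay above every control array. The summed signal of the 29 genes lay between 13.35 and 14.27 in control and between 14.33 and 14.46 after hyperoxia (log2 scale).

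Among the other higher genes, *Pdpn*, a membrane mucin (0.86, adjusted p = 0.026), *Thbs1*, a matrix protein that restrains vessel growth (0.82, adjusted p = 0.0232), and *Pcolce*, which aids collagen maturation (0.82, adjusted p = 0.0229), act at the cell surface or in the matrix. *Thbs1* and *Serpine3* were the 2 called of 39 genes of matrix and remodelling (median 0.07). *Lrrc2* rose from 9.71 ± 0.12 (SD, n = 4 arrays) to 10.71 ± 0.54 (SD, n = 4 arrays), with changes of 0.57 and 1.44 in the regions (limma adjusted p = 0.0495). *Slc14a1*, a urea transporter (0.74), *Lgals3bp* (0.80), *Pros1*, a ligand of the receptors through which pigment epithelium and other phagocytes engulf membrane (0.69), *Cerkl*, a ceramide kinase-like gene (0.55), *Aldh18a1*, an enzyme of proline synthesis (0.60), *Adgrg6*, an adhesion receptor (0.63), *Tnnt2*, a troponin (0.64), *Tmem176b* (0.53) and *Setdb2*, a histone methyltransferase (0.39), completed the 43 higher genes.

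Other defence genes were not called. Of 37 antioxidant and glutathione enzymes, 0 were called in either direction (median 0.10). Of the 37, 28 had a change above 0, and 6 had no overlap upward in both regions (16.2%, background 5.33%). *Sod2*, the mitochondrial superoxide dismutase, read 10.86 to 11.03 in control and 10.99 to 11.12 after hyperoxia (change 0.09, limma adjusted p = 0.736). *Hmox1*, heme oxygenase, changed by 0.34 (limma adjusted p = 0.418). Of 7 genes of the metallothionein group, 0 were called, with changes of 0.37 for *Mt1* and 0.87 for *Mt2* (limma adjusted p = 0.356 and 0.0852). These were the 2 of the group without overlap upward in both regions (28.6%, background 5.33%). Their changes were 0.08 and 0.48 superiorly and 0.65 and 1.27 inferiorly. None of 28 rod genes was called, although 26 had a change below 0 and 7 had no overlap downward in both regions, against 4.23% of all genes (median -0.11, at -0.02 superiorly and -0.19 inferiorly). No gene was called among 19 cone, 24 bipolar, 25 amacrine and 25 ganglion cell genes, or among 29 genes of vascular endothelium, whose median changes lay between -0.13 and 0.01. A change below 0 was also seen in 24 amacrine, 21 ganglion and 20 bipolar cell genes, and in 9 cone and 15 endothelial genes. No overlap downward in both regions was seen in 16% of amacrine, 16% of ganglion and 8.33% of bipolar cell genes (background 4.23%). As a reference for near-background signal, 0 of 1196 olfactory and vomeronasal receptor genes were called, with changes of -0.51 to 0.47.

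**Figure D5:**
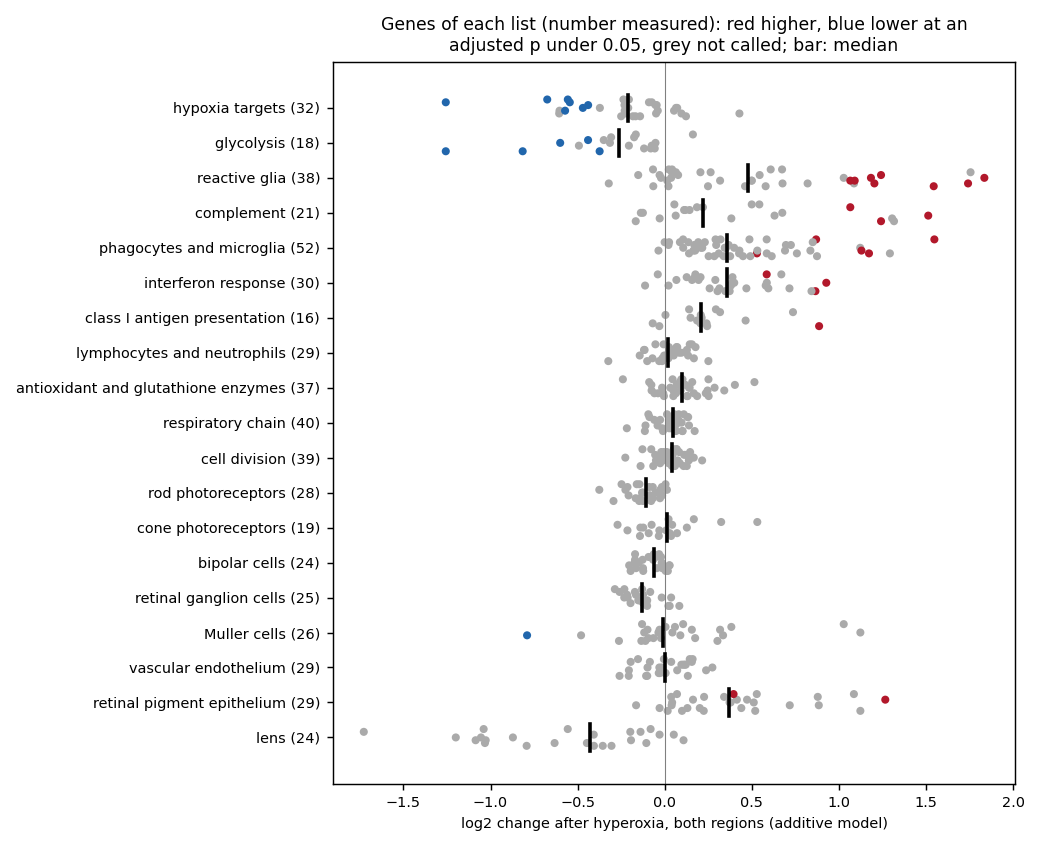
Common log2 change after hyperoxia (x axis) of each measured gene (point) in 19 gene lists (y axis, number measured in brackets), with genes called higher in red, lower in blue and not called in grey, and black bars at the medians. The hypoxia and glycolysis lists lie to the left of 0 (medians -0.21 and -0.26), and the reactive glia and phagocyte lists to the right (0.48 and 0.36).

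Size alone did not decide a call. Of 36 probe sets that changed by more than 1 on the log2 scale, 18 were not called, 10 of them higher. *Edn2*, the endothelin made by stressed photoreceptors, changed by 1.76 on average, more than all called genes but *Gfap*, yet its adjusted p was 0.106, with 0.70 superiorly and 2.81 inferiorly. *Fgf2*, a survival factor for photoreceptors, changed by 0.54 and 1.63 (adjusted p = 0.0705). Of the 18, 8 passed when the 4 group means were fitted and the 2 changes averaged, which leaves the difference between regions out of the residual. The 8 uncalled probe sets that were lower were 7 lens genes, high on control inferior replicate 2, and 1 without a listed symbol.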

How the data were processed

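The 8 Affymetrix Mouse Gene 1.0 ST arrays covered superior and inferior retina. The authors deposited log2 values of 28853 probe sets after importing the arrays into Partek, correcting background by RMA and summarizing probes by median polish (per the methods and the submitters' processing notes). For any normalization between arrays, for versions and for a genome build, nothing was stated in the sources used here. The number of arrays limits the precision. Values were used as deposited. In the platform annotation 21789 probe sets had 1 symbol, 1621 several and 5443 none listed; 21698 were matched to RefSeq (GRCm38.p6) by Entrez ID. Each gene was represented by its brightest 1-symbol probe set. A model of treatment and region without interaction was fitted with limma 3.58.1 in R 4.3.3 (5 residual and 4.29 prior degrees of freedom), and a Benjamini-Hochberg adjusted p under 0.05, taken over the whole table, was called. The rest was computed in Python 3.11.15. The genes, the 43 gene lists and the tests were chosen with earlier results of these data known. Several lists hold genes that the authors had reported as changed in these arrays. Counts of such a list beside the background are therefore not independent of these data. The rule for naming took the 20 higher and 10 lower genes with the largest change, the 4 members with the smallest p and all called members of each list, and the 6 called genes most and the 6 least equal between regions; other genes named were chosen after their values were seen. The fit was tested on simulated data. The alternatives covered normalization, dim probe sets (mean under 6), symbols, the model, the prior, pairing, covariates and left-out arrays.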

Additional observations from a re-analysis of the deposited data

Results flagged for a closer look

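In 5 of 122 sets of 4 arrays of one treatment, 1 array stood apart from the other 3 by more than Dixon's critical value for the gap over the whole range, and chance gives about 1 in 20. Control inferior replicate 2, the array high in lens genes, was the one for *2610528A11Rik* (0.964), *Pcolce* (0.866) and *Ak4* (0.862). Hyperoxia superior replicate 2 stood apart for *Pgam1* (0.859) and hyperoxia inferior replicate 1 for *Pgk1* (0.831). The change of *Edn2* was 2.11 larger in the inferior than in the superior retina (limma interaction, adjusted p = 0.00186), the one difference between regions past the threshold.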

How the results depend on the processing

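All 71 called probe sets kept their direction under every setting run, though only the normalizations and covariates could have reversed it. With the superior and inferior arrays of a shared number averaged, 34 of the 46 higher and 13 of the 25 lower kept their call. Of the 7 called hypoxia targets, *Slc16a3*, *P4ha1*, *Pfkfb3* and *Bnip3* kept it, and *Egln1*, *Kdm3a* and *Ddit4* did not. Of the other called glycolytic genes, *Pfkl* and *Pgam1* kept it, and *Pgk1* and *Aldoa* did not. Against 46 higher and 25 lower, the counts were 105 and 50 with dim probe sets left out and 116 and 51 with a variance trend. Using 1-symbol probe sets only gave 74 and 29, and no region term gave 12 and 25. Averaging the changes of 4 group means gave 129 and 35. Averaging the superior and inferior arrays of a shared number gave 76 and 17, and the pigment epithelium covariate 15 and 5. A plain t-test of the averaged change gave 2 and 0 after Benjamini-Hochberg. At an unadjusted p under 0.05 it passed 2410 probe sets, against 2498 by the additive limma model. The methods name t-tests and a 2-way ANOVA, but not this average over regions with adjustment. Quantile normalization (41 and 23), median centring (48 and 29), a robust prior (45 and 25), the lens covariate (39 and 26) and a shared pool as a random block (55 and 29) stayed within 1.5 times. Of these calls, those without overlap in both regions were 127 higher for the averaged changes, 73 for the averaged arrays and 14 for the pigment epithelium covariate, and otherwise equalled the counts except 37 and 24 with the lens covariate. The share of higher calls, 64.8% with all arrays, was 78.7% for averaged changes, 32.4% with no region term, 81.7% for averaged arrays and 75% with the pigment epithelium covariate. Leaving out 1 array gave 1 to 24 higher and 2 to 10 lower, and 1 to 30 probe sets differing between regions, with 30 only without control inferior replicate 1. Superior and inferior samples sharing a treatment and a replicate number deviated together with correlations of 0.072 in control and 0.104 after hyperoxia. Samples sharing only the number across treatments, which come from different animals, gave -0.021 to 0.144. These values therefore cannot decide whether the samples were paired. The replicate block gave 35 higher and 19 lower (48 of the 71) and 1 probe set differing between regions. *Rpe65*, not called, changed by -0.0724 with the pigment epithelium covariate, by that covariate's construction. With 2 arrays per group, the precision of every value is limited.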
